A study of Nicotiana tabacum with 12 samples.

Results

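The plastid-encoded genes of tobacco (Nicotiana tabacum) were described over seedlings in which a MYB transcription factor, AmMIXTA of snapdragon, was or was not switched on. Members were all genes whose identifier starts with NitaC, the prefix of the chloroplast genome in the RefSeq annotation. They numbered 68 of the 45034 genes measured, with 68 in the table at 4 h and 67 at 48 h, where 1 copy of rpl23 (NitaCp067) had no row. All 68 matched the 144 plastid genes of the RefSeq gene table of assembly ASM71507v2, which gave their symbols and lengths, and the other 76 had no row here. By class, 3 members encode photosystem I, 10 photosystem II, 1 the cytochrome b6f complex, 6 the ATP synthase, 4 the NADH dehydrogenase-like (NDH) complex and 1 the large subunit of Rubisco. A further 10 encode proteins of the small and 8 of the large ribosomal subunit, 3 the plastid RNA polymerase, 4 ribosomal RNA and 8 transfer RNA, and 10 have other or no named products.

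Seedlings of cultivar Petit Havana SR1, in stable T2 lines that carry AmMIXTA behind a β-estradiol-inducible promoter, were sampled as whole aerial parts, with 15 seedlings pooled in each collection. The control groups were seedlings of the same lines left without estradiol. Each treatment was collected at 4 h, when seedlings were 7 days old, and at 48 h, when they were 9 days old, and gave 3 libraries per time. No group given estradiol without the transgene was analysed here, so responses to estradiol and to AmMIXTA cannot be told apart. Nothing in the labels says that replicates came from separate experiments, and the p-values below cover no more than the scatter among the libraries at hand, part or all of which may be technical.

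The plastid genome of land plants holds a small set of genes for photosynthesis and for the plastid's own transcription and translation, most of them in multigene transcription units, while most plastid proteins are encoded in the nucleus. It is transcribed by a plastid-encoded polymerase, of which rpoB, rpoC1 and rpoC2 give subunits and which reads mainly photosynthesis genes, and by a nuclear-encoded polymerase, which reads among others the rpo genes themselves. Plastid RNA carries poly(A) tails mainly as a mark for decay, so libraries made from polyadenylated RNA, as here, sample it incompletely. The large inverted repeat of the genome holds a pair of copies of each ribosomal RNA and of several transfer RNA and protein genes.

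Deposited values were whole read numbers scaled by 1 factor per library. Recovered reads per library, without genes that carried inflated single entries, ranged from 12457701 to 30103266, except in control replicate 1, with 917871 at 4 h and 1240033 at 48 h, called shallow here. Control replicates 2 and 3 at 48 h were identical in 42659 of 42659 genes and were counted as 1 sample, so n = 2 for that group. The green tissue markers rbcL and psbA were abundant in every library, but both are members, so they give no separate check of the tissue. Other markers of tissue were not analysed here.

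Plastid genes took a smaller share of the reads in induced than in control seedlings at 4 h, and at 48 h the groups overlapped. At 4 h they held 7.40%, 6.99% and 6.57% of the recovered reads in control replicates 1, 2 and 3, against 5.84%, 4.57% and 5.51% in the induced ones. Every induced library was below every control library, at a mean of 5.31% ± 0.663 against 6.99% ± 0.417 (SD, n = 3 per group), a ratio of 0.759 (two-sided exact permutation test, p = 0.1, the smallest that 3 against 3 allows). In bulk tissue, fewer cells rich in plastids and less plastid RNA per cell cannot be told apart. Whether the selection of polyadenylated RNA sampled plastid RNA alike in every library was not tested. At 48 h the shares were 5.80% and 6.74% in the controls and 8.52%, 6.28% and 6.87% in the induced libraries. These groups overlapped, at 6.27% ± 0.667 (SD, n = 2) against 7.22% ± 1.16 (SD, n = 3), a ratio of 1.15 (exact permutation p = 0.4). With libraries paired by library number, the ratio was 0.756 at 4 h (exact paired test over 3 pairs, p = 0.25) and 1.05 at 48 h (2 pairs). Wilson 95% intervals of single libraries, which cover counting error only, were at most 0.0536 percentage points to either side. Keeping the genes with inflated entries turned the ratio to 1.06 at 4 h and 0.917 at 48 h. At 4 h those genes took 43.0% and 40.1% of the reads in control replicates 1 and 2. In the other 4 h libraries, all induced ones among them, they took at most 0.105%. At 48 h they took up to 69.3% of a library's reads.

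Most of these reads came from ribosomal RNA, the structural RNA of the plastid ribosome, and so did 1.53 of the 1.68 percentage points between the group means at 4 h. The 4 ribosomal RNA genes held 6.27%, 5.68% and 5.55% of all reads in the 4 h controls and 4.79%, 3.63% and 4.49% in the 4 h induced libraries, without overlap (ratio 0.737, exact permutation p = 0.1). The other plastid genes together held 1.13%, 1.31% and 1.02% in the controls and 1.05%, 0.939% and 1.02% in the induced libraries. Here the groups overlapped, and the ratio was 0.871 (exact permutation p = 0.2). At 48 h the ribosomal RNA took 4.71% and 5.48% in the controls against 7.23%, 5.11% and 5.75%, and the other plastid genes had a ratio of 1.01 (exact permutation p = 0.8).

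Reads of other organelle and ribosomal genes moved with the plastid share. The 42 mitochondrion-encoded genes of the 4 h table held 0.224%, 0.230% and 0.202% of the reads in the 4 h controls and 0.165%, 0.195% and 0.172% in the 4 h induced libraries, a ratio of 0.810 without overlap (exact permutation p = 0.1). A nuclear ribosomal RNA gene (LOC107818503) had a ratio of 0.767 at 4 h, also without overlap (exact permutation p = 0.1). The ratio of plastid to mitochondrial reads was 32.0 ± 1.40 in the controls and 30.3 ± 6.16 in the induced libraries at 4 h (SD, n = 3 per group, exact permutation p = 0.8). The part of these RNAs in the plastid result was not tested.

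**Figure D1:**
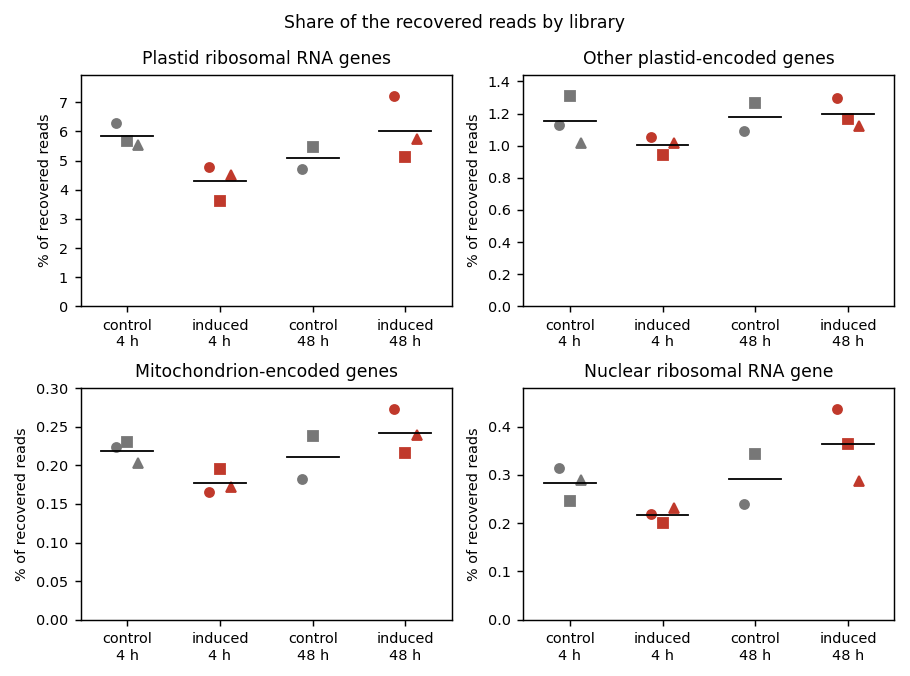
Percent of the recovered reads (vertical axes, starting at 0) in each library of the 4 groups, for plastid ribosomal RNA, other plastid genes, mitochondrion-encoded genes and the nuclear ribosomal RNA gene; circles, squares and triangles are replicates 1, 2 and 3, bars are group means, and the repeated 48 h control library is drawn once. At 4 h the induced libraries lie below all controls for every kind but the other plastid genes, where the groups overlap.

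The estimated effect of induction on the plastid share differed between the time points, without passing the threshold once adjusted. The sign at 48 h is uncertain: the groups overlapped. The 48 h ratio was 0.989 relative to mitochondrial reads and 0.917 with the genes of inflated entries kept. The log2 ratio of induced to control was -0.40 at 4 h and 0.20 at 48 h, a difference of 0.60 (exact permutation of the labels within each time over 200 arrangements, p = 0.02, adjusted p = 0.05 over 5 measures). For plastid ribosomal RNA alone the difference was 0.68 (exact permutation p = 0.02, adjusted p = 0.05), and for the other plastid genes it was 0.21 (exact permutation p = 0.195). The RNAs that moved with the plastid share had differences of 0.70 for the nuclear ribosomal RNA gene (exact permutation p = 0.055, adjusted p = 0.0688) and 0.52 for the mitochondrial genes (exact permutation p = 0.035, adjusted p = 0.0583). With libraries paired by library number, the difference for the plastid share was 0.47 (exact swaps within 3 and 2 pairs, p = 0.125, the smallest possible being 0.0625). Leaving out any 1 library kept the difference for the whole plastid share between 0.47 and 0.71.

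Over genes held by both tables, the plastid share in controls went from 7.22% ± 0.429 at 4 h (SD, n = 3) to 6.28% ± 0.668 at 48 h (SD, n = 2). The ratio was 0.870, with no overlap (exact permutation p = 0.2). Plastid ribosomal RNA in controls had a ratio of 0.846, also with no overlap (exact permutation p = 0.1, the smallest possible). For the other plastid genes it was 0.992 with overlap. Induced seedlings had 5.48% ± 0.693 at 4 h and 7.23% ± 1.16 at 48 h (SD, n = 3 each), a ratio of 1.32 with no overlap (exact permutation p = 0.1, the smallest possible). This ratio turned to 0.666 with the genes of inflated entries kept and to 0.981 relative to mitochondrial reads.

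Gene by gene, 1 of the 66 plastid genes tested at 4 h passed the threshold, a ribosomal RNA that fell, where limma called 0.352% of all 37238 genes in either direction, 0.0967% higher and 0.255% lower, at an adjusted p under 0.05. NitaCr105, a copy of the ribosomal RNA of 1491 bp, had normalised values of 6229, 5833 and 4959 in control replicates 1 to 3 and of 3510, 2760 and 3628 in the induced ones. It was lower in every induced than in every control library, with a log2 ratio of -0.79 ± 0.14 (SE, limma adjusted p = 0.00332). Its log2 ratio stayed between -0.88 and -0.66 over 19 alternatives and was called in 17. The call was lost without the shallow control library, leaving 0 plastid genes called, and in a fit of both times together. With the reads of both copies of this RNA summed the log2 ratio was -0.49 (limma adjusted p = 0.170). Pairing the libraries by library number gave 2 calls, NitaCr105 and rps16 (NitaCp003), a small-subunit protein gene with a log2 ratio of -0.43, where that fit called 1.01% of all genes.

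The other members leaned the same way without passing the threshold. Only 5 of the 66 had a log2 ratio above 0, and the median was -0.23, against 0.02 over all genes tested. Without control replicate 2 the count above 0 was 18 of 64 and the median -0.17, and without induced replicate 2 they were 15 of 66 and -0.14. Leaving out induced replicate 1 or 3 gave 10 of 65 each, and leaving out the shallow control 9 of 64. Groups did not overlap for 19 of the 66 on the lower side (28.8%, against 4.95% of all genes tested) and for 0 on the higher side (5.45% of all genes). Members measured in the same libraries are not independent of each other. Besides the 4 ribosomal RNA genes, the 19 were psaA, psaB, psbA, psbB, psbC, psbD, petA, atpB, atpE, atpI, rbcL, rpoC1, rps3, rps14 and rps16.

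Of the 12 classes, photosystem II and photosystem I had the lowest median log2 ratios at 4 h, while single genes of other classes lay lower. For psbA (NitaCp001), which encodes the D1 reaction centre protein of photosystem II, values were 739, 957 and 697 in the controls and 628, 330 and 565 in the induced libraries at 4 h. The groups did not overlap, but induced replicate 2 was far below the other two, and the log2 ratio of -0.69 (SE 0.25) had a limma adjusted p of 0.790. For psbD (NitaCp015), the D2 protein that pairs with D1, they were 39.0, 48.4 and 35.1 against 30.8, 20.7 and 28.1 (log2 ratio -0.62 ± 0.15 SE, limma adjusted p = 0.111). The photosystem I core genes psaA (NitaCp019) and psaB (NitaCp021) had log2 ratios of -0.50 and -0.59, also without overlap. All 9 photosystem II genes tested and all 3 of photosystem I were below 0, with medians of -0.53 and -0.50.

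In the carbon-fixing enzyme and the energy-converting complexes the differences were smaller. For rbcL (NitaCp031), the large subunit of Rubisco, values were 437, 577 and 417 in the controls and 406, 279 and 400 in the induced libraries, which lay below every control (log2 ratio -0.40 ± 0.16 SE, limma adjusted p = 0.720). The 6 ATP synthase genes had log2 ratios from -0.35 to -0.21, with 6 of 6 below 0. The 4 NDH genes, of a complex that returns electrons to the photosynthetic chain, ranged from -0.12 to 0.19. The highest was ndhB (NitaCp097), which had few reads, and petA (NitaCp036), which encodes cytochrome f, had -0.26. None of these passed the threshold.

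Of the ribosomal protein genes, 8 of 10 for the small and 7 of 8 for the large subunit were below 0 at 4 h. The small-subunit genes ranged from -1.62 to 0.15 with a median of -0.09, and the large-subunit genes from -1.09 to 0.27 with a median of -0.12. The lowest values were those of single copies of repeat genes, rps7 (NitaCp074) and rpl23 (NitaCp103), whose reads divided unevenly between copies. The 3 polymerase genes ranged from -0.45 to -0.18. Transfer RNA genes, 8 of 8, were below 0, with a median of -0.20. Among the other genes ycf3 (NitaCp022), an assembly factor of photosystem I, stood at 1403, 1637 and 1405 in the controls and at 1554, 1719 and 1449 in the induced libraries, groups that overlapped.

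**Figure D2:**
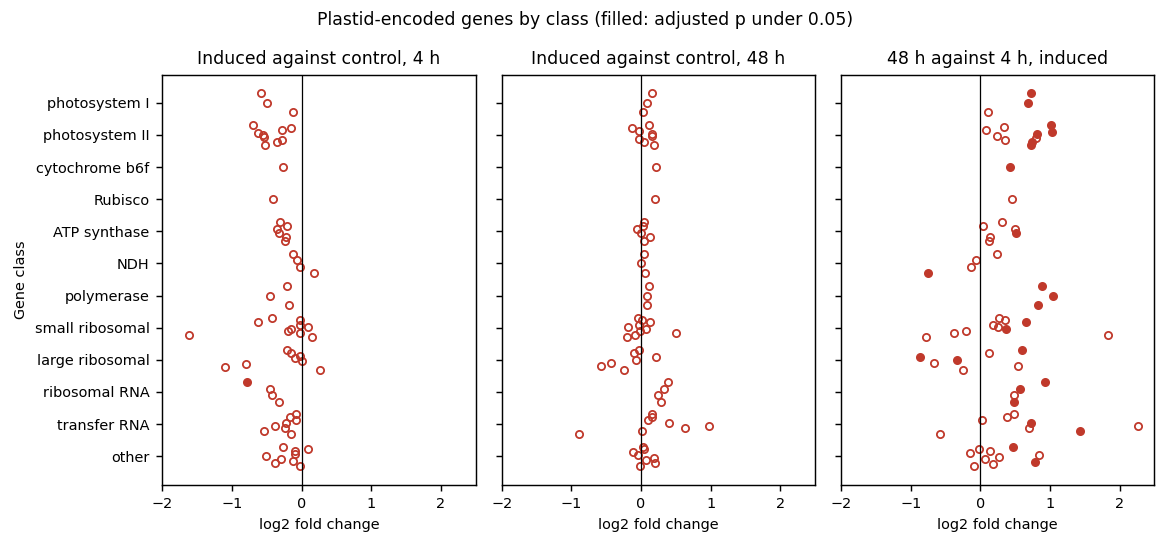
Log2 fold change (horizontal axes) of each plastid gene tested, by gene class, for induced against control at 4 h and at 48 h and for 48 h against 4 h in induced seedlings; filled points passed an adjusted p of 0.05 in limma. At 4 h 1 point is filled, at 48 h none, and between the times in induced seedlings 25 are.

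Seen as a share of the plastid reads themselves, the classes differed in direction at 4 h, without passing the threshold. ATP synthase, NDH, small-subunit, large-subunit, transfer RNA and other genes, 6 of 12 classes, took a larger share of plastid reads in every induced than in every control library (exact permutation p = 0.1 each, adjusted p = 0.2 over the 12). The large-subunit share was 1.38 times that of the controls, the NDH share 1.28 times and the ATP synthase share 1.12 times. These shares follow the rows with most reads. In induced replicate 1 at 4 h, rps12 held 71580 reads and the next small-subunit row, rps7 (NitaCp096), 2557. In the class of other genes ycf3 held 65040 and the next, clpP, 13012. Both rpl2 copies, at 3478 and 4344, led the large-subunit class. Photosystem I and II had ratios of 0.914 and 0.852 with overlapping groups, and ribosomal RNA 0.970. Since the shares of a library sum to a whole, classes cannot move independently here.

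At 48 h 0 of the 62 plastid genes tested were called by limma, against 0.0127% of the 31565 genes in either direction (0.0095% higher and 0.00317% lower), with 5 at an unadjusted p under 0.05 (8.06%, against 5.9% of all genes). The tests on recovered reads called 0 as well, with 3 under an unadjusted 0.05 by edgeR (4.84%, against 7.11%) and 2 by DESeq2 (3.23%, against 1.76%). The median log2 ratio was 0.05, against 0.02 over all genes, and 42 of 62 were above 0. Without control replicate 1, the shallow library, the median was -0.07 with 22 above 0, and without the other control it was 0.22 with 48. Scaling by library size alone gave -0.02 with 28 above 0 and by nuclear library size -0.01 with 30, so no direction is given for the members as a group. Leaving out induced replicate 1 moved the median to 0.01 and leaving out replicate 3 to 0.14. Groups did not overlap for 5 genes on the higher side (8.06%, against 12.5% of all genes) and for 0 on the lower side (8.92% of all genes). The 5 were NitaCr112, psbB, rps19, trnV and trnI (NitaCt138). Pairing by library number gave 3 calls, 2 higher and 1 lower, where it called 1.36% of all genes, and assigning the repeated library to the other number gave 8, against 2.05% of all genes.

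Of the mRNAs among them, rps19 had the largest log2 ratio. For rps19 (NitaCp065), which encodes a small-subunit protein, values were 9.0 and 8.9 in the controls and 16.7, 13.2 and 9.5 in the induced libraries. All induced libraries lay above both controls, 1 of them barely (log2 ratio 0.50 ± 0.19 SE, limma adjusted p = 0.729). All 4 ribosomal RNA genes had log2 ratios above 0, from 0.24 to 0.39. For NitaCr105, lower in induced seedlings at 4 h, the 48 h values were 2209 and 2868 in the controls and 4889, 2764 and 2669 in the induced libraries. These groups overlapped, with induced replicate 1 well above the rest (log2 ratio 0.39 ± 0.32 SE, limma adjusted p = 0.955). Class shares of plastid reads did not overlap for 4 classes, with photosystem I, photosystem II and other genes lower and ribosomal RNA higher in induced seedlings (exact permutation p = 0.2 each, adjusted p = 0.533).

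The difference between the effect at 48 h and at 4 h was tested for each of 67 plastid genes in 1 fit over both tables, and 0 were called by limma, against 0.157% of 42010 genes (0.105% higher and 0.0524% lower). At an unadjusted p under 0.05 there were 16 by limma (23.9%, against 6.29% of all genes), 16 by edgeR (23.9%, against 8.38%) and 12 by DESeq2 (17.9%, against 3.23%). This fit had no filter on low values, so the shares over all genes include genes with few reads. The median difference was 0.32, against 0.00 over all genes, and 58 of 67 lay above 0. Without the shallow control library at 48 h the median was 0.17 with 8 under an unadjusted 0.05, and without the other 48 h control 0.48 with 21. It was 0.21 without induced replicate 2 at 4 h. Leaving out induced replicate 3 at 48 h gave 24 under an unadjusted 0.05. The widest among the ribosomal RNA genes was that of NitaCr105, at 1.19 (SE 0.34, limma adjusted p = 0.463).

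In induced seedlings, plastid genes rose between 4 h and 48 h more than they fell. Of 67 tested, 22 rose (8.28% of all genes rose) and 3 fell (8.69% of all genes fell), 25 in all against 17.0% of the 42010 genes called in either direction by limma. Their median log2 ratio was 0.35 against -0.01 over all genes. Here too the fit had no filter on low values, and the shares over all genes include genes with few reads. In control seedlings, the same span of growth from 7 to 9 days gave 1 gene higher (5.57% of all genes) and 3 lower (6.38%), 4 in all against 12.0% in either direction, with a median of 0.02. That split was 3 higher and 1 lower without the shallow control library at 48 h, and 0 higher and 1 lower without the shallow one at 4 h. Mitochondrion-encoded genes moved with them, with 21 of 40 higher and 0 lower in induced seedlings and 0 called in controls, and their part in the plastid result was not tested. These comparisons use the libraries of the induction comparisons above, so they are no separate evidence of those effects. Levels across times are in CPM, recovered reads scaled to library size with TMM, and age, time and the separate tables cannot be told apart.

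The photosystem genes were the largest group among those that rose, 7 of 13. In CPM, psbA stood at 947, 496 and 848 in the induced libraries at 4 h and at 1838, 1227 and 1457 at 48 h. The 48 h libraries were all above those at 4 h, a log2 ratio of 1.01 ± 0.25 (SE, limma adjusted p = 0.0228). For psbD the 4 h libraries held 46.3, 31.2 and 42.1 and the 48 h libraries 96.2, 69.9 and 79.1, with no overlap (log2 ratio 1.03 ± 0.15 SE, limma adjusted p = 8.1e-05). The core antenna genes psbB (NitaCp052) and psbC (NitaCp016), which bind chlorophyll around the reaction centre, rose by 0.72 and 0.82 on the log2 scale. So did psbE (NitaCp041), a cytochrome b559 subunit, by 0.74. Of photosystem I, psaA rose by 0.68 and psaB by 0.72, and psaJ (NitaCp045), a small subunit, had 0.11 and did not pass.

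In the controls, psbA went from 1133, 1435 and 1047 CPM at 4 h to 1278 and 1469 at 48 h, a log2 ratio of 0.20 (limma adjusted p = 0.744). The groups overlapped. At 4 h the induced libraries lay below every control, and at 48 h the induced and control libraries overlapped. The difference between the time courses of psbA was 0.82 (SE 0.38, limma adjusted p = 0.817) and that of psbD 0.80 (SE 0.23, limma adjusted p = 0.332).

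**Figure D3:**
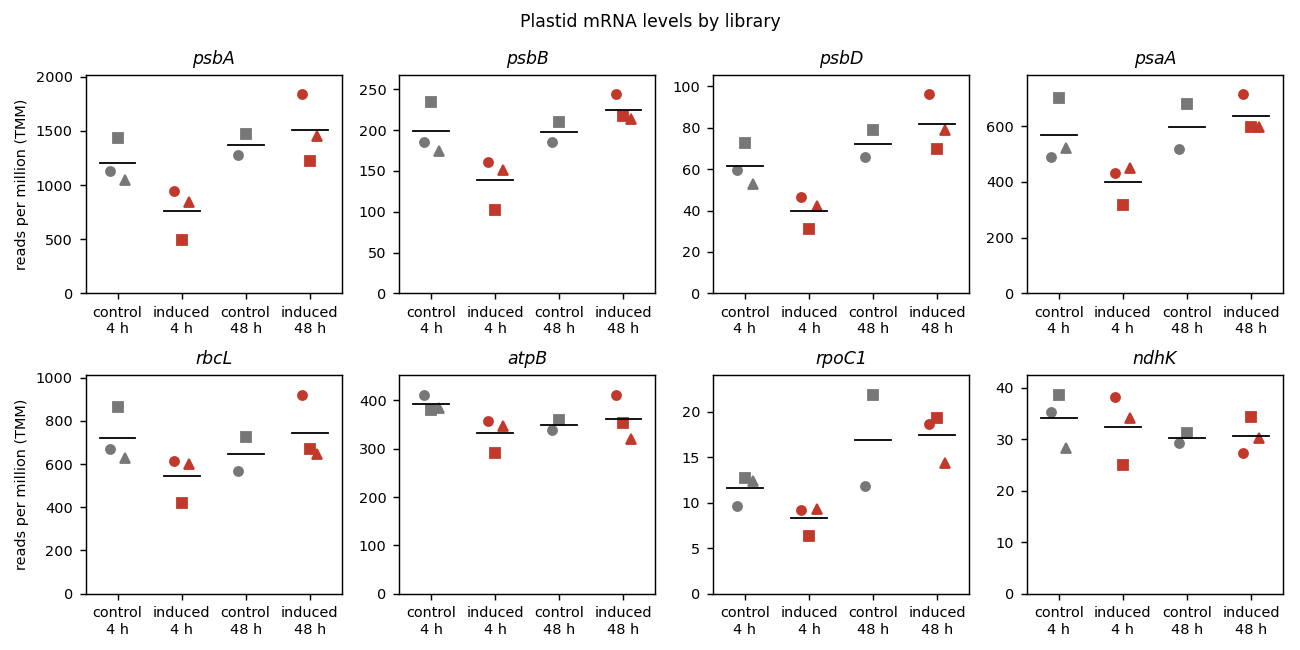
CPM after TMM scaling (vertical axes, each starting at 0) of 8 plastid mRNAs in each library of the 4 groups; symbols mark replicates 1, 2 and 3 and bars are group means. For psbA, psbB, psbD and psaA the 4 h induced libraries lie below all other libraries, and for rpoC1 the 48 h groups lie above most 4 h libraries.

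Polymerase genes rose together in induced seedlings, 3 of 3. For rpoC1 (NitaCp011), a catalytic subunit, the induced libraries held 9.26, 6.29 and 9.28 CPM at 4 h and 18.6, 19.3 and 14.4 at 48 h, with no overlap (log2 ratio 1.04 ± 0.21 SE, limma adjusted p = 0.00194). rpoC2 (NitaCp010) rose by 0.89 and rpoB (NitaCp012) by 0.83. In control seedlings their log2 ratios were 0.47 to 0.55 and none passed the threshold. The difference between the time courses did not pass either. It was 0.57 for rpoC1, 0.35 for rpoC2 and 0.28 for rpoB (limma adjusted p = 0.869, 0.968 and 0.981). The fourth member of the set read mainly by the nuclear-encoded polymerase, accD (NitaCp032), which encodes a subunit of acetyl-CoA carboxylase, had 0.84 in induced seedlings (limma adjusted p = 0.0842). Of 15 photosystem, cytochrome b6f and rbcL genes, which are read mainly by the plastid-encoded polymerase, 8 rose, and rbcL had 0.46 (limma adjusted p = 0.106).

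Of the ribosomal RNA genes, NitaCr105, NitaCr106 and NitaCr112 rose in induced seedlings by 0.93, 0.56 and 0.49 on the log2 scale, and NitaCr111 had 0.49 (limma adjusted p = 0.0776). With copies summed, the RNA of 1491 bp had a log2 ratio of 0.65 (adjusted p = 0.000781) and that of 2810 bp 0.52 (limma adjusted p = 0.0221). Elsewhere petA rose by 0.43, atpI (NitaCp008), a subunit of the membrane part of the ATP synthase, by 0.51, rps14 (NitaCp020) by 0.65, rpl33 (NitaCp046) by 0.60 and rps12 (NitaCp095) by 0.36. A transfer RNA for valine, trnV (NitaCt131), rose by 0.72, and the unnamed reading frames NitaCp017 and NitaCp037 by 0.46 and 0.78, the latter overlapping psbJ in the annotation. The 3 that fell were rpl16 (NitaCp062), a large-subunit protein gene, by 0.86, rpl22 (NitaCp064) by 0.34 and ndhB (NitaCp097) by 0.75. For ndhB the induced libraries held 2.52, 2.57 and 2.39 CPM at 4 h and 1.24, 1.21 and 1.39 at 48 h. These rest on 70, 80 and 53 reads at 4 h and on 14, 19 and 32 at 48 h. At 48 h ndhB was below the filter on low values, which this fit did not use. It is also a gene of the inverted repeat with a single copy measured here, so its fall is uncertain.

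How many genes rose depended on single libraries. Without induced replicate 2 at 4 h, the lowest library for most photosystem genes, 9 rose and 0 fell, and without induced replicate 3 at 4 h 16 rose and 0 fell. Leaving out induced replicate 1 at 48 h gave 10 higher and 2 lower, and leaving out replicate 2 there gave 14 and 1. Scaling by the reads of nuclear genes alone gave 16 higher and 5 lower, with the median of all genes moved from -0.01 to -0.11. The genes psbB, psbC, psbD, psbE, psaA, psaB and rpoC1 were called in all 20 alternatives of the comparison.

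In control seedlings the 4 changed genes all encode ribosomal proteins. Small-subunit gene rps19 fell from 55.6, 44.7 and 45.5 CPM at 4 h to 25.4 and 25.2 at 48 h, with no overlap (log2 ratio -0.92 ± 0.18 SE, limma adjusted p = 0.00209). rpl16 fell by 1.13 and rps3 (NitaCp063) by 0.40 on the log2 scale, and rps18 (NitaCp047) rose by 0.54. The genes rps19, rps3 and rpl16 lie in 1 transcription unit with rpl22, and were called in 20, 15 and 17 of 20 alternatives, while rps18 was called in 12. Without the shallow 4 h control library 1 plastid gene was called, and without control replicate 2 at 4 h 2 were. The edgeR and DESeq2 tests called 2 each.

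Transcription units differed in how many of their genes changed over time in induced seedlings. All 3 genes of psaA-psaB-rps14 rose, with log2 ratios from 0.65 to 0.72, as did both of psbD-psbC and all 3 of rpoB-rpoC1-rpoC2. In the rps2-atpI-atpH-atpF-atpA unit, 1 of 5 rose, with a range from 0.04 to 0.51. None of ndhC-ndhK-ndhJ or of atpB-atpE was called, with ranges from -0.14 to 0.24 and from 0.12 to 0.14. Of the ribosomal protein unit that begins at rpl23, 2 of 7 measured fell. Genes of a unit can share reads where they overlap, as psbD with psbC, ndhK with ndhC and atpE with atpB do in the annotation.

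Per kilobase of gene, plastid levels spanned a wide range. In the 4 h controls the mean normalised value per kilobase was 6096, 4618, 3957 and 3805 for the ribosomal RNA genes. It was 751 for psbA, 731 for ycf3, 333 for rbcL, 299 for trnL (NitaCt129) and 226 for psaJ. The ATP synthase gene atpB (NitaCp030) had 173, rps14 172, psaA 167 and psaB 154, and the protease gene clpP (NitaCp050) 139. At the low end were accD at 3.46, rpoB at 2.88, rpoC1 at 2.73, rpoC2 at 2.53, NitaCp042 at 2.45 and ndhB at 0.636. Gene lengths include introns, among them those of ycf3, clpP and ndhB, so these levels are approximate. The ndhB value, like those of the ribosomal RNA genes, is that of a single copy of a repeat gene. The rps12 row was left out because its listed length covers 1 exon of a trans-spliced gene.

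For genes with a pair of copies in the inverted repeat, reads divided between the copies differently from library to library. For trnI, the isoleucine transfer RNA, NitaCt138 took between 9.27% and 61.7% of the reads of both copies in the 4 h libraries. The sum of both copies was 109 ± 4.37 in the controls and 88.2 ± 20.3 in the induced libraries at 4 h (SD, n = 3 per group). One rps7 copy (NitaCp074) took 0.467% to 26.0% at 4 h and 12.1% to 70.0% in the induced libraries at 48 h. For rpl2, a large-subunit gene, the first copy (NitaCp066) took 13.6% to 76.5% in the latter group. Identical copies cannot be told apart by their reads, so rows of single copies are uncertain.

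Summed over copies, both transfer RNAs of the repeat rose over time in induced seedlings. In CPM, trnI held 133 ± 30.7 in induced seedlings at 4 h and 257 ± 36.6 at 48 h (SD, n = 3 per group), with no overlap, a log2 ratio of 0.97 ± 0.15 (SE, limma adjusted p = 7.21e-05). The alanine transfer RNA, trnA, held 93.9 ± 25.4 and 196 ± 12.4 (log2 ratio 1.09 ± 0.17 SE, limma adjusted p = 0.000193). In controls trnI and trnA had 0.25 and 0.52, and neither passed the threshold. The differences between the time courses, 0.72 for trnI and 0.57 for trnA, did not pass either (limma adjusted p = 0.383 and 0.752). Sums were chosen after the data were seen.

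**Figure D4:**
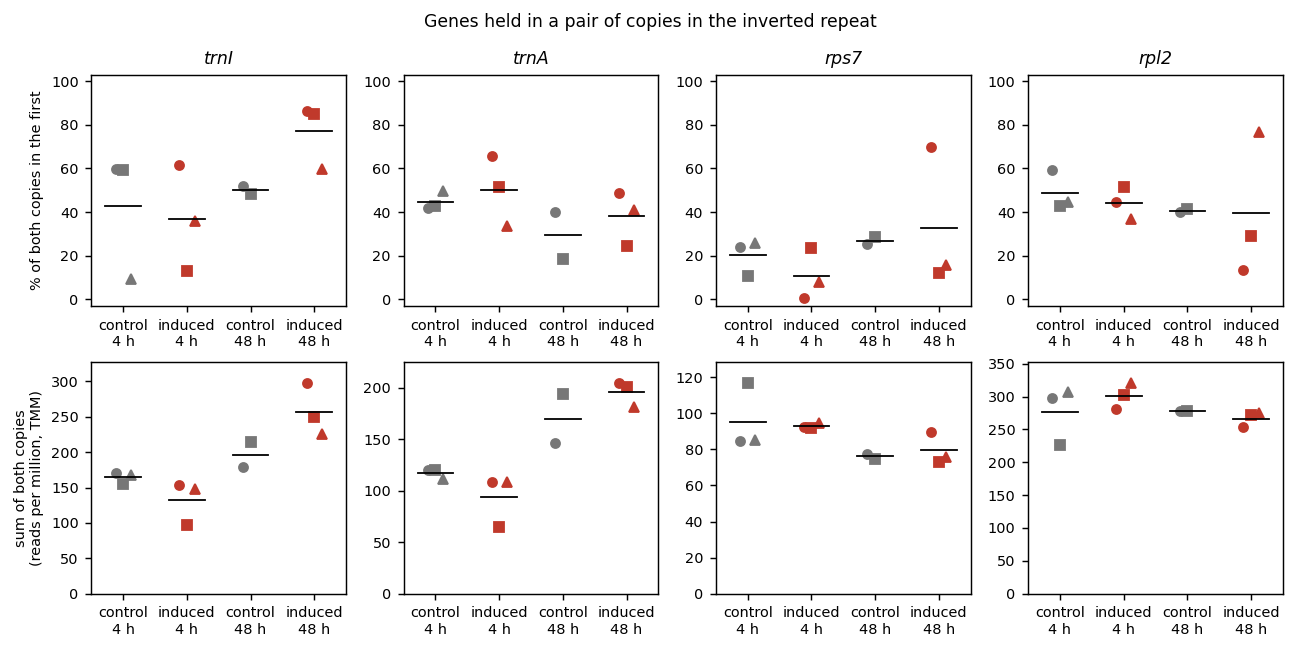
Percent of the reads of both inverted-repeat copies that fell to the first listed copy (upper row) and the sum of both copies in CPM after TMM scaling (lower row, from 0) for trnI, trnA, rps7 and rpl2 by library; symbols are replicates 1, 2 and 3 and bars are group means. The division varies widely within a group while the sums stay much closer together, as for rps7 in the induced libraries at 48 h.

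Among the 604 genes that the authors' deposited table gives as higher at 48 h, 2 are plastid genes. The authors' deposited table gives psbJ (NitaCp038), a small photosystem II subunit, a fold of 1.88 at an unadjusted p of 0.00677, and trnI (NitaCt138) a fold of 2.01 at an unadjusted p of 0.0484. psbJ was below the filter on low values at 48 h, and trnI with copies summed had a log2 ratio of 0.38 (limma adjusted p = 0.685). psbF (NitaCp040) and the reading frame NitaCp042 were below the filter at both times, and ndhB, NitaCp025 and psbJ at 48 h.

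Nuclear genes whose name holds "chloroplastic" were compared as a group. The 20 so named were named in the authors' tables of higher genes, so their direction is not independent evidence. At 4 h 4 of 17 tested rose and 1 fell, against 0.0967% of all genes higher and 0.255% lower, and at 48 h 0 of 18 were called by limma. Between the times in induced seedlings 7 of 19 rose, against 8.28% of all genes, and 0 fell.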

How the data were processed

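Polyadenylated RNA was sequenced from 12 samples in paired-end reads of 150 bp, with a minimum of 38 M reads per the labels. The unit of the authors' deposited values is a signal: within a library each is a whole multiple of 1 step, and dividing by it gave whole reads for 100% of values within 0.01. The submitters' processing notes name edgeR without a version. Aligner, build, annotation, counting tool and its strand setting were not given in the sources used here. The authors' deposited tables of higher genes hold a linear fold ratio and an unadjusted p-value.

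Genes with a single entry above 5000 and over 20 times the gene's median (4 at 4 h, 14 at 48 h, no plastid gene) were left out. The test was limma with trend and robust moderation on log2(value + 0.5), on genes at 1 or more in 3 libraries. Log2 ratios are of values with this pseudocount, which shrinks those of low genes. Fits over both times used recovered reads of 42010 genes, scaled by TMM, without the filter on low values. The p-values were adjusted by Benjamini-Hochberg over all genes and called at 0.05. Shares of reads were tested by exact permutation over samples. Fits ran in limma 3.58.1 under R 4.3.3, with DESeq2 1.42.0 and edgeR 4.0.16 as alternatives, and the scripts were tested on simulated data.

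Main fits and tests were unpaired, since the labels do not say that numbers pair samples. Library numbers in the descriptions were taken to pair the samples in the paired alternatives only. Libraries of equal number deviated together, with correlations of 0.23, 0.28 and 0.22 at 4 h (10952 genes) and of 0.64 and 0.59 at 48 h, where 2 distinct controls deviate as mirror images. Named genes were the highest of each class, its largest and smallest change, and those called, up to 10 a comparison by p, and other members named here were chosen after their values were seen. Members and lists were chosen with earlier results of these data known.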

Additional observations from a re-analysis of the deposited data

Results flagged for a closer look

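The effects of induction on the plastid share of reads at 48 h and 4 h lay apart by 0.599 on the log2 scale (exact permutation p = 0.02, adjusted p = 0.05, which is not under the threshold). With libraries paired by library number the difference was 0.474 (exact p = 0.125). The same test gave 0.68 for plastid ribosomal RNA (adjusted p = 0.05) and 0.515 for the mitochondrial share (exact permutation p = 0.035, adjusted p = 0.0583).

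psbB was lower in every induced library at 4 h and higher in every induced library at 48 h, a difference of 0.72 on the log2 scale (adjusted p = 0.392 by limma). The margin at 48 h was narrow, with 74.1 in the higher of 2 distinct controls and 75.3 in the lowest induced library. NitaCr112 did the same, with 4631 and 4656 at that margin and a difference of 0.63 (adjusted p = 0.323 by limma), but it is a single copy of a repeat gene. Summed with its other copy, NitaCr105, the difference was 0.84 (limma adjusted p = 0.104). Of the plastid genes tested, 28.8% were lower without overlap at 4 h (4.95% of all genes), and 8.06% higher at 48 h (12.5% of all genes).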

How the results depend on the processing

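With inflated genes kept, the ratio of plastid shares was 1.06 at 4 h (0.759 without them), 0.917 at 48 h (1.15) and 0.666 for 48 h against 4 h in induced seedlings (1.32). Relative to mitochondrial reads it was 0.989 at 48 h and 0.981 for induced seedlings over time. Leaving out 1 library gave ratios of 0.721 to 0.812 at 4 h, 1.05 to 1.25 at 48 h, 0.805 to 0.935 in controls over time and 1.20 to 1.41 in induced seedlings. Classes without overlap numbered 6 to 9 at 4 h and 4 to 11 at 48 h (7 without the repeated control library). Genes called at 4 h numbered 0 to 2 on leaving out 1 library, 2 with nuclear library size, 2 with the library-number pairing, 0 with both times in 1 fit and 0 with repeat copies summed. At 48 h they numbered 0 to 3 on leaving out 1 library, 4 with the replicate block by title number, 3 by library number and 8 with the repeated library under the other number. Over time in controls they numbered 1 to 5 on leaving out 1 library and 2 by edgeR and by DESeq2, and in induced seedlings 9 to 26. The causes were not tested. The block by library number changed no other count by more than 1.5 times. In single genes no alternative reversed a called change; over time in induced seedlings, of all pairings of a called gene with an alternative, 410 kept the call and 86 lost it. Depth limits low genes in the shallow libraries.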
